A study of Mus musculus with 4 samples.

Results

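The nuclear genes for subunits of the mitochondrial respiratory chain and of ATP synthase were examined in mBMSCs, the mouse bone marrow-derived mesenchymal stem/progenitor cells of this study. Genes were taken by symbol: the Nduf subunit series for complex I, Sdha to Sdhd for complex II, symbols starting with Uqcr for complex III, Cox4 to Cox8 for complex IV and Atp5 for complex V. This gave 84 of the 24346 rows of the expression table, with 37 genes for complex I, 4 for complex II, 8 for complex III, 18 for complex IV and 17 for complex V. Subunits encoded by mitochondrial DNA were not analysed here. A name taken by symbol is not always a subunit in place: Ndufa4 protein is now assigned to complex IV, Ndufa4l2 is its relative, Cox7a2l is known for joining complexes III and IV, and Atp5s and Atp5sl are not part of the ATP synthase core.

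The respiratory chain sits in the inner mitochondrial membrane. Complexes I and II take electrons from NADH and from succinate and pass them to ubiquinone, complex III passes them to cytochrome c, and complex IV passes them to oxygen. Complexes I, III and IV pump protons, and complex V uses the returning protons to make ATP. Most subunits are encoded in the nucleus and imported. In mesenchymal progenitors, oxidative phosphorylation is known to become more prominent when cells commit to bone or fat lineages, while undifferentiated cells draw largely on glycolysis.

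The cells came from 3-month-old C57BL/6 mice (C57BL/6J in the study's methods) and were transfected by lipofection with a scrambled control siRNA (siScr, 2 samples) or with siRNA against ZBP1 (siZBP1, 2 samples), and RNA was collected 72 h later. ZBP1 is an interferon-induced sensor of Z-form nucleic acids, and the comparison asked what its depletion does to the transcripts of these cells. The sources used here do not say which anti-ZBP1 siRNA was used, nor whether the samples of a group were separate cultures from separate mice, so the p-values measure only the spread between these samples. Values are FPKM, fragments scaled to the length of the transcript and to the size of the library, a level per length that can be compared between genes. The read number of each library is not known, and no counting error is given. The FPKM columns summed to between 477974 and 492166.

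Zbp1 stood at 85.97 and 62.0 FPKM in the siScr samples and at 11.5 and 11.6 FPKM in the siZBP1 samples, a log2 fold change of -2.56 ± 0.16 (SE; limma, adjusted p = 0.00322). Of 12 stromal markers, 11 were tested. In limma 5 fell (45.5%, beside 14.8% of all genes tested) and 1 rose (9.09%, beside 13.5%). Their median log2 fold change was -0.44, with 10 estimates below 0 and 1 above. Col1a1, the main chain of type I collagen, was at 3066 and 2520 FPKM in siScr and 1128 and 1191 FPKM in siZBP1 samples. Its log2 fold change of -1.26 was a larger fall than that median. Macrophage markers were also abundant: Lyz2, which encodes lysozyme, was at 2814 and 3647 FPKM and then at 5871 and 5402 FPKM. All 13 macrophage markers were detected. In limma 8 rose (61.5%, beside 13.5% of all genes) and 0 fell (beside 14.8%), with 9 and 0 at an unadjusted p under 0.05. Their summed FPKM was 8096 to 9080 in siScr and 12279 to 12943 in siZBP1 samples. Lyz2, the most abundant of them, leads that sum. The median log2 fold change of the 13 markers was 0.28, and the lowest was -0.01. Of 4 fat cell markers, Plin1 and Cidec were listed at 0 in every sample, Adipoq did not exceed 0.219 FPKM, and Fabp4, which macrophages also express, was at 91.2 and 98.5 FPKM in siScr and at 105 and 114 FPKM in siZBP1 samples (not called). The part of this marker shift in the subunit values below was not tested, and in bulk RNA fewer cells of a type and less RNA per cell cannot be told apart.

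Genes of the respiratory chain are known for a few shared promoter letters, which are shown here so that the calls below can be set beside them. RefSeq promoter windows on GRCm38.p6, from 250 bases before to 50 bases after each start site, were matched to 66 of the 84 members, some of which have more than 1 window. Both strands were searched. The letters GCGCATGCG of nuclear respiratory factor 1 were present in 8 of 71 member windows (11.3%) and in 1.75% of all 32851 windows. They are close to their own reverse complement, so that several sites read on both strands and are shown once. These 8 windows, written 5′ to 3′ on the gene's strand with the matched letters in capitals, were:
Ndufa8 (chr2:36049331-36049355, minus strand): gctggagaCGCATGCGCagatggta
Ndufa11 (chr17:56717694-56717718, plus strand): tgcactgcGCGCATGCGcgcacgcc
Uqcr11 (chr10:80406810-80406834, minus strand): cgccttcaCGCATGCGCtatacgtc
Uqcrc1 (chr9:108936670-108936694, plus strand): tccgctctGCGCATGCGcagcgcgg
Cox6a1 (chr5:115349104-115349128, minus strand): ggaacgggGCGCATGCGcgctctcg
Atp5g2 (chr15:102671073-102671097, minus strand): ctccggccGCGCATGCGcagagcct
Atp5k (chr5:108434433-108434457, minus strand): tcactgcgGCGCATGCGcctttctg
Atp5l (chr9:44920967-44920991, minus strand): accaataaCGCATGCGCatttcccc

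The core letters of ETS factors such as GABPA, CCGGAAG, were present in 22.5% of member windows and in 8.86% of all windows. The sites of members that rose in siZBP1 cells, described with their values below, are shown, with 1 of 2 sites for Ndufs3. The choice to show them followed the calls. Members without a call, here and below for promoter letters, include any with a window that were not tested, such as Cox7b2. Of the 13 risen members with a window, 5 hold these letters, against 11 of 52 members without a call, and no test was made:
Ndufs3 (chr2:90904734-90904756, minus strand): gcgtccgcCCGGAAGaagagtca
Sdhd (chr9:50603881-50603903, minus strand): tctcctgcCTTCCGGttcacgct
Uqcrh (chr4:116075066-116075088, minus strand): atgccgcaCTTCCGGccaggtcg
Atp5h (chr11:115419943-115419965, minus strand): ggagagaaCTTCCGGcaactctc
Atp5j (chr16:84835023-84835045, minus strand): tgagggacCCGGAAGcacttacc

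Other letters were also more frequent in member windows than in all windows. The letters ATGGCGG of YY1 were in 15.5% against 4.05%, and TCAAGGTCA of ERR alpha in 2.82% against 0.423%, the latter in the windows of Sdhd and Atp5g3. CCAAT was in 42.3% against 37.4%. A match is a run of letters and not a measured binding site.

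Of the 84 members, 79 reached a mean of 1 FPKM and were tested with limma on log2(FPKM + 1) together with all 11959 such genes. In siZBP1 cells, 14 members rose and 3 fell at an adjusted p under 0.05. The risen members were 17.7% of those tested, beside 13.5% of all genes. The fallen members were 3.8%, beside 14.8% of all genes. The split was 17 higher and 1 lower after quantile normalization. The changes were small: the median log2 fold change was 0.07 over the members and 0.00446 over all genes, and the median absolute log2 fold change was 0.11 and 0.18, respectively. Of the 79 members, 60 (75.9%) had a log2 fold change above 0, compared with 50.8% of all genes. Both siZBP1 values lay above both siScr values for 43 members and below them for 9 members, and such separation was seen upward in 34.7% and downward in 33.7% of all genes tested. All 17 called members kept their sign with any of the 4 samples left out. With either siZBP1 library left out, which leaves that group with 1 sample, 0 of the 17 calls remained and Zbp1 was no longer called either (the lowest adjusted p over the members in limma was then 0.0968 and 0.0801, with 15 and 22 members at an unadjusted p under 0.05), and 5 and 9 remained without siScr replicate 1 and 2.

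**Figure D1:**
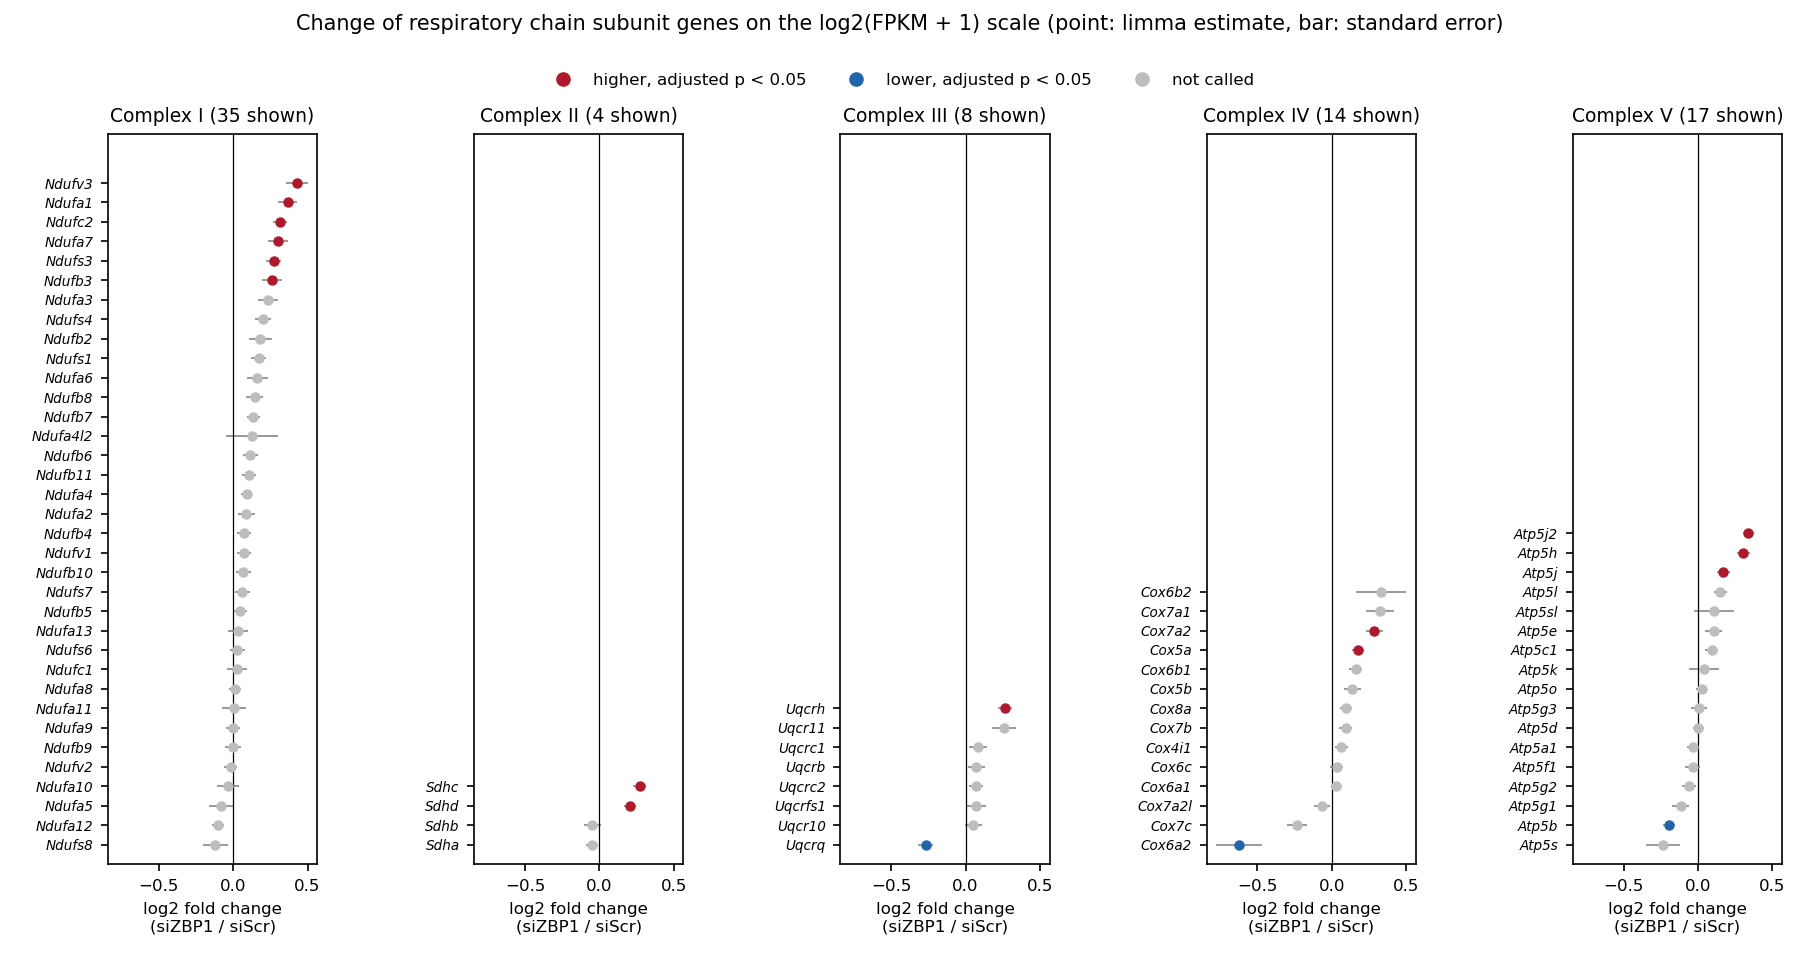
Log2 fold change (siZBP1 over siScr, log2(FPKM + 1) scale) of 78 of the 79 tested genes, with a panel for each complex; points are limma estimates, bars are standard errors, and colour marks the 14 genes called higher and the 3 called lower. Points of complex I lie mostly to the right of 0, with Ndufv3 at 0.43, and Cox6a2 of complex IV lies farthest to the left at -0.62.

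The members ranged widely in level. Mean FPKM over the 4 samples went from 0 to 362, the latter for Cox4i1, with a median of 78.5. By complex the median level was 172 FPKM for complex V, 115 for complex III, 80.9 for complex IV, 80.2 for complex II and 57.2 for complex I.

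Replicates lay close together. The median difference between the replicates of a group was 0.07 on the log2 scale in siScr and 0.07 in siZBP1 samples. For 41 of the 79 members (51.9%), the difference between the group means was larger than both replicate differences, beside 58.8% of all genes tested. The median SE of the members' log2 fold changes was 0.05.

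Complex I, NADH dehydrogenase, had 6 risen (16.7%) and 0 fallen members among 36 tested in limma, beside 13.5% and 14.8% of all genes. The median log2 fold change was 0.09. At an unadjusted p under 0.05, 11 were higher and 0 lower. The share of all genes past an unadjusted p was not counted, here or for the other unadjusted counts given. These counts can therefore not be said to differ from those of all genes. Ndufv3, an accessory subunit of the NADH-oxidizing tip (chr17:31520115-31531331, plus strand), was at 53.1 and 60.5 FPKM in siScr and at 76.3 and 76.9 FPKM in siZBP1 samples. It had the highest log2 fold change of the tested members, 0.43 ± 0.07 (SE; limma, adjusted p = 0.0178). Ndufa1, a small membrane subunit encoded on the X chromosome (chrX:37187588-37191163, minus strand), was at 55.001 and 50.8 FPKM and then at 66.0 and 71.1 FPKM, with a log2 fold change of 0.37 ± 0.06 (SE; limma, adjusted p = 0.019). For both genes the groups did not overlap.

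Ndufc2, a subunit of the membrane arm, was at 83.3 and 79.1 FPKM in siScr and at 103 and 99.3 FPKM in siZBP1 samples (log2 fold change 0.32; limma, adjusted p = 0.014). Ndufa7, an accessory subunit of the matrix arm, went from 97.9 and 89.2 FPKM to 121 and 110 FPKM (0.30; limma, adjusted p = 0.0384). Ndufb3, another membrane arm subunit, went from 50.4 and 53.4 FPKM to 59.3 and 65.7 FPKM (0.26; limma, adjusted p = 0.0467). In each of these genes both siZBP1 samples were above both siScr samples, by 20.5% to 24.7% on average.

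The 7 nuclear core subunits of complex I, which carry the flavin, the iron-sulfur clusters and the quinone site, had 1 call. Ndufs3, of the quinone-reducing module (chr2:90894634-90904827, minus strand), rose from 48.1 and 48.7 FPKM to 60.9 and 56.5 FPKM, a log2 fold change of 0.27 ± 0.05 (SE; limma, adjusted p = 0.0242), and a share of 47.8% of its 50-base coding words is also found in 2 pseudogenes. Ndufs1, the largest subunit, was at 29.3 and 30.1 FPKM and at 32.7 and 34.5 FPKM. Its log2 fold change was 0.17, without a call, although its groups did not overlap.

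Smaller estimates were found for 4 core subunits. The flavin-carrying Ndufv1 had 25.7 and 26.2 FPKM in siScr and 27.9 and 26.8 FPKM in siZBP1 samples, and Ndufv2 had 40.7 and 41.9 FPKM and 40.03 and 41.7 FPKM. Ndufs7 and Ndufs8, which bind the clusters nearest to the quinone, had log2 fold changes of 0.06 and -0.12, respectively, neither of them called. Over the core the median was 0.07 with 1 of 7 called higher (14.3%). Over the 29 other tested subunits of complex I it was 0.09 with 5 called higher (17.2%), beside 13.5% of all genes.

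The lowest log2 fold changes of complex I were those of Ndufs8 and Ndufa12, an accessory subunit of the matrix arm, which was at 75.0 and 76.3 FPKM in siScr and at 71.2 and 69.7 FPKM in siZBP1 samples (-0.10; not called). The most abundant were Ndufa4, at 195 and 189 FPKM and then 204 and 204 FPKM, and Ndufa3, at 156 and 155 FPKM and then 194 and 172 FPKM. Neither was called. Ndufs5, an accessory subunit of the membrane arm, was listed at no more than 0.00503 FPKM in any sample and was not tested. A share of 72.5% of the 50-base words in its coding sequence occurs in a pseudogene as well. Whether this bears on its level was not tested, and no fold is given for it.

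Complex II, succinate dehydrogenase, had 2 risen members of 4 (50%, beside 13.5% of all genes), both of them membrane anchors. Sdhc (chr1:171127165-171150603, minus strand) was at 85.1 and 89.8 FPKM in siScr and at 104 and 107 FPKM in siZBP1 samples, a log2 fold change of 0.27 ± 0.05 (SE; limma, adjusted p = 0.0178). Sdhd (chr9:50596357-50603812, minus strand) went from 75.8 and 74.2 FPKM to 87.4 and 85.8 FPKM, with a log2 fold change of 0.21 ± 0.04 (SE; limma, adjusted p = 0.0234). The catalytic subunits were not called. Sdha, which holds the flavin, was at 80.6 and 81.1 FPKM and at 76.6 and 79.8 FPKM. Sdhb, which holds the iron-sulfur clusters, was at 65.2 and 70.5 FPKM and at 67.7 and 63.5 FPKM. Both had a log2 fold change of -0.05, and the difference between anchors and catalytic subunits was not itself tested.

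Complex III, the cytochrome bc1 complex, had a call in each direction among its small subunits. Each was 12.5% of its 8 tested genes, near the shares of all genes. Uqcrh, the acidic hinge protein that helps cytochrome c to dock, rose from 133 and 141 FPKM to 167 and 162 FPKM, a log2 fold change of 0.26 ± 0.05 (SE; limma, adjusted p = 0.0205). Uqcrq, the ubiquinone-binding protein next to cytochrome b (chr11:53427922-53430831, minus strand), fell from 178 and 168 FPKM to 140 and 147 FPKM, a log2 fold change of -0.27 ± 0.05 (SE; limma, adjusted p = 0.0218). Thus Uqcrq was the most abundant subunit of the complex in siScr samples, and both of its siZBP1 values were below those of Uqcrh.

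The remaining subunits of complex III had positive estimates without a call. Uqcr11 was at 121 and 110 FPKM in siScr and at 147 and 129 FPKM in siZBP1 samples, with a log2 fold change of 0.26 and a larger SE of 0.08. Uqcrb was at 145 and 150 FPKM and then at 148 and 162 FPKM. The core proteins Uqcrc1 and Uqcrc2 and the Rieske iron-sulfur protein Uqcrfs1, which carries electrons to cytochrome c1, had log2 fold changes of 0.08, 0.07 and 0.07, and Uqcr10 had 0.05.

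Complex IV, cytochrome c oxidase, had 2 risen (14.3%) and 1 fallen (7.14%) member among 14 tested, beside 13.5% and 14.8% of all genes. Cox7a2, the widely expressed form of subunit VIIa, was at 70.7 and 76.8 FPKM in siScr and at 92.6 and 87.6 FPKM in siZBP1 samples, with a log2 fold change of 0.29 ± 0.06 (SE; limma, adjusted p = 0.0291). Cox5a, a matrix-side subunit, went from 160 and 161 FPKM to 177 and 185 FPKM, with a log2 fold change of 0.18 ± 0.04 (SE; limma, adjusted p = 0.0408). Its partner Cox5b was not called, at 142 and 152 FPKM and then at 157 and 166 FPKM. Cox7c had the second lowest estimate of the complex, from 49.2 and 54.1 FPKM to 45.2 and 42.2 FPKM (-0.24; not called), and its coding words are all shared with 3 pseudogenes.

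Cox6a2, the form of subunit VIa known from heart and skeletal muscle (chr7:128205435-128206387, minus strand), was near the lower limit of the test. It was at 2.05 and 1.60 FPKM in siScr and at 0.708 and 0.957 FPKM in siZBP1 samples, with a log2 fold change of -0.62 ± 0.16 (SE; limma, adjusted p = 0.0445). Its group mean fell by 54.4%, and Cox6a2 was the only member both called by limma and over 1.5-fold different. It passed the filter through the siScr samples, with group means of 1.83 FPKM in siScr and 0.832 FPKM in siZBP1. The call was lost with an offset of 0.1, without a filter, after quantile normalization and with a replicate block. With a mean of at least 5 FPKM required, Cox6a2 was not tested. It overlaps 1 other annotated gene, and whether strand was used in the counting is not stated, so that reads of the overlapping genes may not be told apart. By the ratio of group means over all 16281 genes above 0 in both groups, 10.7% of genes were over 1.5-fold higher and 13.8% over 1.5-fold lower. Among the members 1 was lower, Cox6a2, and 1 higher, which was Ndufs5 at its near-0 values.

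**Figure D2:**
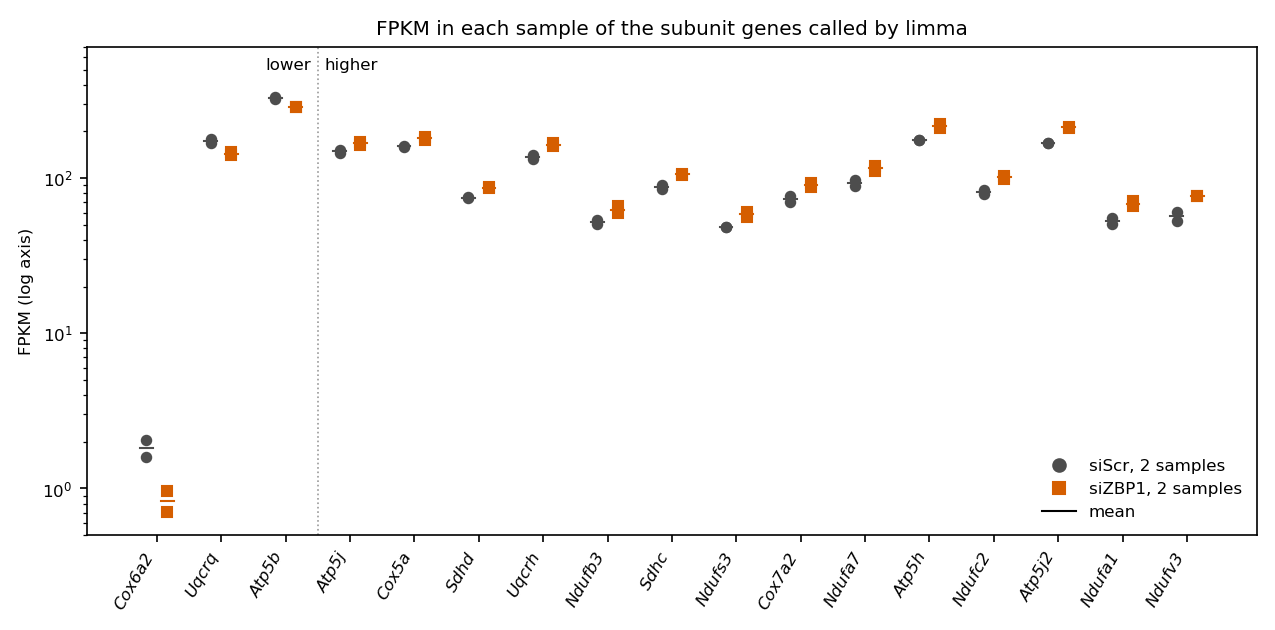
FPKM (log axis) in each of the 4 samples for the 17 genes called by limma, with siScr samples as grey circles, siZBP1 samples as orange squares and group means as short lines. The groups do not overlap for any of the 17 genes, which follows largely from their choice by limma. Of all genes tested, 34.7% separate upward and 33.7% downward. Cox6a2 sits far below the others at 0.708 to 2.05 FPKM.

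Subunits of complex IV that have isoforms encoded by separate genes showed the widely expressed form far above the tissue-restricted form. Cox4i1 was at 346 and 362 FPKM in siScr and at 368 and 372 FPKM in siZBP1 samples, whereas Cox4i2, the form known from lung and from low oxygen, did not exceed 0.637 FPKM. Cox4i1 thus held 99.8% to 99.9% of the summed FPKM of the pair. Cox6a1 was at 256 to 266 FPKM and held 99.2% to 99.7% of its pair with Cox6a2. Cox6b1 was at 291 and 299 FPKM and then at 323 and 337 FPKM (0.16; not called), and the testis form Cox6b2 was at 2.19 and 1.59 FPKM and then at 2.29 and 2.96 FPKM.

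Cox7a1, the muscle form of subunit VIIa, was at 3.39 and 3.34 FPKM in siScr and at 4.72 and 4.23 FPKM in siZBP1 samples, with a log2 fold change of 0.33 ± 0.09 (SE) that was not called. Its groups did not overlap. Cox7a2l was at 179 and 170 FPKM and then at 161 and 172 FPKM (-0.07; not called), so that its share of the summed FPKM of the 3 Cox7a genes was 68.0% to 70.7% in siScr and 62.3% to 65.2% in siZBP1 samples, beside the rise of Cox7a2. Cox7b was at 78.1 and 76.5 FPKM and then at 80.4 and 84.7 FPKM. Cox8a was at 232 and 243 FPKM and then at 255 and 252 FPKM. Cox7b2 and Cox8c were listed at 0 in all samples and Cox8b at 0 in 3 of the 4 and at 0.467 FPKM in siZBP1 replicate 1; these 3 and Cox4i2 were not tested.

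Outside complex IV, Ndufa4l2, the hypoxia-inducible relative of Ndufa4, was at 3.25 and 2.11 FPKM in siScr and at 2.93 and 3.00 FPKM in siZBP1 samples, with overlapping groups. The 3 genes that encode the same mature c subunit of ATP synthase were all expressed. Atp5g1 was at 90.8 and 100.1 FPKM and then at 87.1 and 88.6 FPKM, Atp5g2 at 195 and 187 FPKM and then at 179 and 187 FPKM, and Atp5g3 at 169 and 175 FPKM and then at 179 and 167 FPKM. None of these genes was called. The coding words of Atp5g1 and Atp5g2 are almost all shared with pseudogenes (99.7% and all of them), which makes their split uncertain, whereas those of Atp5g3 are not shared.

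**Figure D3:**
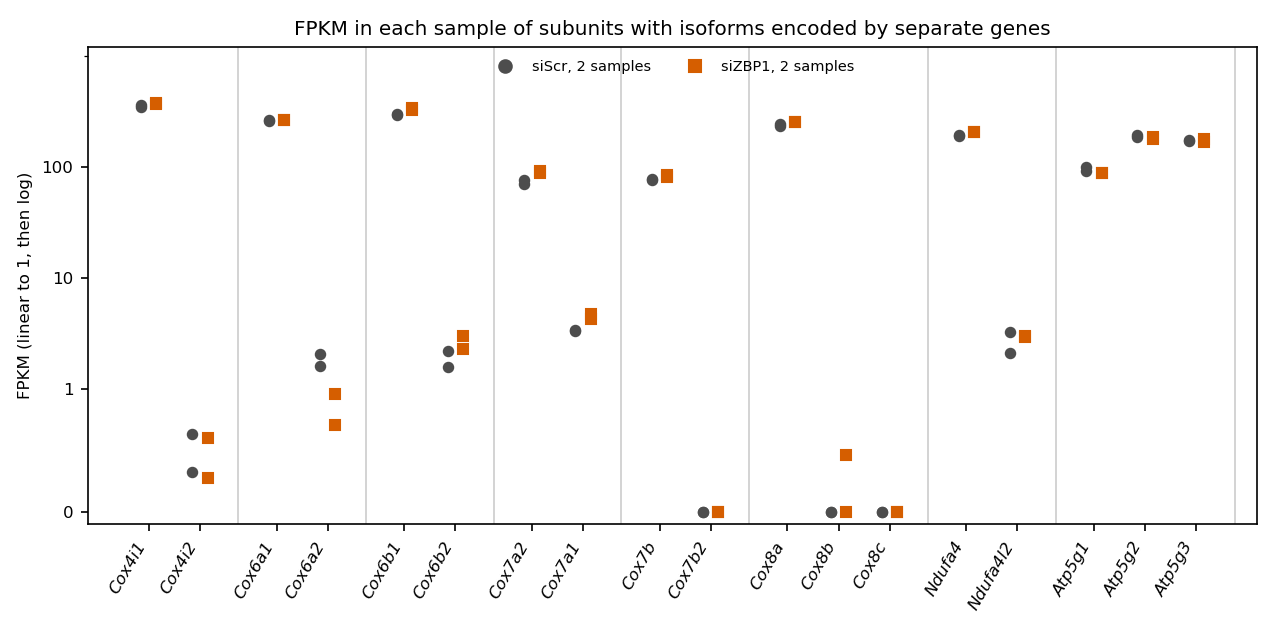
FPKM in each of the 4 samples for subunits with isoforms encoded by separate genes, on an axis that is linear up to 1 and logarithmic above; grey circles are siScr and orange squares siZBP1 samples. Cox4i1, Cox6a1, Cox6b1 and Cox8a lie above 200 FPKM while Cox4i2, Cox6a2, Cox6b2, Cox7a1 and Cox8b lie below 5 FPKM, and the 3 Atp5g genes lie between 87.1 and 195 FPKM.

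Complex V, ATP synthase, had 3 risen (17.6%) and 1 fallen (5.88%) member among 17 tested, beside 13.5% and 14.8% of all genes. Atp5j2, the small membrane subunit f (chr5:145183698-145192062, minus strand), was at 168 and 168 FPKM in siScr and at 215 and 211 FPKM in siZBP1 samples. The log2 fold change of Atp5j2 of 0.34 ± 0.04 (SE) had the lowest adjusted p of all members (limma, adjusted p = 0.00724). Atp5h, subunit d of the peripheral stalk that holds the head against the rotor (chr11:115415689-115419962, minus strand), went from 176 and 175 FPKM to 223 and 212 FPKM, with a log2 fold change of 0.30 ± 0.04 (SE; limma, adjusted p = 0.0122). A share of 67.0% of its coding words is also found in 4 pseudogenes. Atp5j, coupling factor 6 of the same stalk, went from 146 and 152 FPKM to 171 and 164 FPKM (0.17; limma, adjusted p = 0.0494).

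Atp5b, the catalytic beta subunit of the F1 head (chr10:128083273-128090391, plus strand), fell. It was the most abundant gene of the complex, at 335 and 324 FPKM in siScr and at 286 and 288 FPKM in siZBP1 samples, a log2 fold change of -0.20 ± 0.04 (SE; limma, adjusted p = 0.0269). Its head partner Atp5a1, the alpha subunit, was at 195 and 198 FPKM and then at 188 and 195 FPKM (-0.03; not called). The gamma subunit Atp5c1 of the rotating shaft was at 132 and 129 FPKM and then at 136 and 143 FPKM (0.09; not called). Of the 5 genes of the F1 part, 1 fell (20%, beside 14.8% of all genes). Of the 4 peripheral stalk genes, 2 rose (50%, beside 13.5%). The difference between these parts was not tested.

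The other genes of the complex were not called. Atp5k, subunit e, had the second highest level, at 203 and 246 FPKM and then at 224 and 234 FPKM, with an SE of 0.10 around an estimate of 0.04. Atp5s had the lowest estimate, -0.23 ± 0.11 (SE), at 3.72 and 3.27 FPKM and then at 3.03 and 2.61 FPKM. Its groups did not overlap. The median log2 fold change of complex V was 0.02, and it was -0.0016 without siScr replicate 1.

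Summed over all its members, each complex had higher FPKM in both siZBP1 samples than in both siScr samples. Complex I summed to 2219 and 2230 FPKM in siScr and to 2448 and 2406 FPKM in siZBP1 samples, 9.11% more on average. Complex II summed to 307 and 316 FPKM and then to 336 and 336 FPKM, 8.02% more. Complex III summed to 857 and 839 FPKM and then to 893 and 888 FPKM, 4.94% more. The increase of complex I was the largest of the 5, and differences between complexes were not tested.

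Complex IV summed to 2016 and 2052 FPKM in siScr and to 2131 and 2176 FPKM in siZBP1 samples, 5.87% more. Complex V had the smallest difference, 3.67%, from 2538 and 2604 FPKM to 2669 and 2661 FPKM. All members together went from 7937 and 8041 FPKM to 8478 and 8466 FPKM, which was 1.61% to 1.68% of all FPKM in siScr and 1.75% to 1.77% in siZBP1 samples. In an exact two-sided permutation test, each of these 6 comparisons gave p = 0.333, the smallest value that 2 samples against 2 allow. Adjustment over the 6 comparisons leaves it at that value. Sums follow the most abundant genes: without Uqcrq the ratio of complex III was 1.11 instead of 1.05.

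Calls in other gene lists are set beside the shares of all genes tested, 13.5% higher and 14.8% lower. Differences between the lists and the subunits were not tested. Among 6 subunits and carriers outside the symbol rule, 1 rose and 0 fell in limma, as at an unadjusted p under 0.05. The highest estimate was that of 2010107E04Rik, a small ATP synthase subunit, at 151 and 162 FPKM in siScr and at 170 and 196 FPKM in siZBP1 samples (0.22; not called), and the lowest was that of Cycs, cytochrome c, at 33.4 and 33.2 FPKM and then at 31.6 and 33.9 FPKM. Of 42 tested assembly factors, 5 rose (11.9%, near the share of all genes) and 1 fell (2.38%). Their median log2 fold change was -0.06, with 16 estimates above 0 and 26 below. Sdhaf4, an assembly factor of succinate dehydrogenase, rose from 12.7 and 13.9 FPKM to 20.2 and 20.4 FPKM (log2 fold change 0.58; limma, adjusted p = 0.00803). Ndufaf7, which methylates a complex I subunit, had the lowest estimate, from 7.29 and 6.14 FPKM to 4.04 and 5.42 FPKM (-0.44; not called).

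Tricarboxylic acid cycle and pyruvate entry enzymes, which supply the chain with NADH and succinate, had 8 fallen (44.4%) and 0 risen genes of 18 in limma. At an unadjusted p under 0.05 the counts were 8 and 2, and the median change was -0.13 on the log2 scale. Pdha1, of the pyruvate dehydrogenase complex, fell from 80.6 and 72.9 FPKM to 49.9 and 51.2 FPKM (-0.59; limma, adjusted p = 0.00671). The highest estimate was that of Ogdh, of 2-oxoglutarate dehydrogenase, at 26.1 and 27.3 FPKM and then at 29.7 and 30.3 FPKM (0.16; not called). Among 21 regulators of mitochondrial genes, 2 rose and 2 fell (9.52% each). Of the factors whose promoter letters were searched, Nrf1, Gabpa and Yy1 were not called, with log2 fold changes of 0.05, -0.16 and -0.18. Esrra, the nuclear receptor ERR alpha, rose from 15.2 and 13.3 FPKM to 19.5 and 19.0 FPKM (0.41; limma, adjusted p = 0.024), and Mterf4, a factor for mitochondrial ribosome assembly, went from 4.84 and 4.001 FPKM to 3.11 and 2.98 FPKM (-0.42; not called).

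Carriers and shuttles had 3 risen and 3 fallen genes of 17 (17.6% each, near the shares of all genes). Ucp2, an uncoupling protein family member, rose from 259 and 246 FPKM to 322 and 323 FPKM (0.35; limma, adjusted p = 0.00952), and Vdac3, an outer membrane channel, fell from 71.6 and 71.9 FPKM to 55.9 and 57.1 FPKM (-0.34; limma, adjusted p = 0.00815). Import and inner membrane genes had 9 fallen (32.1%) and 2 risen (7.14%) genes of 28. Hspa9, the matrix chaperone mortalin, fell from 204 and 178 FPKM to 114 and 116 FPKM (-0.73; limma, adjusted p = 0.00638), and Timm17b, of the inner membrane translocase, rose from 8.28 and 7.15 FPKM to 12.1 and 10.2 FPKM (0.48; limma, adjusted p = 0.0413).

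Mitochondrial ribosomal protein genes had 13 fallen (16.9%, near the 14.8% of all genes) and 2 risen (2.6%) of 77. Their estimates went from Mrpl47 at -0.53 to Mrpl43 at 0.27 on the log2 scale, both called. Cytosolic ribosomal protein genes had 51 fallen (67.1%) and 0 risen of 76 in limma (63 and 0 at an unadjusted p under 0.05). The median change was -0.23. The extreme estimates in that list were uncertain: Rpl26 was listed at 7.16 FPKM in siScr replicate 1 and at 0 in the other samples, and Rpl30 was at 4.60 and 11.5 FPKM and then at 9.07 and 9.44 FPKM, and neither was called. Glycolysis had 9 risen (47.4%) and 1 fallen (5.26%) gene of 19, with a median of 0.20. Aldoc, an aldolase, rose from 6.78 and 8.30 FPKM to 16.2 and 16.1 FPKM (1.01; limma, adjusted p = 0.00638), and Pfkp, a phosphofructokinase, fell from 25.3 and 24.6 FPKM to 18.8 and 20.3 FPKM (-0.34; limma, adjusted p = 0.02).

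**Figure D4:**
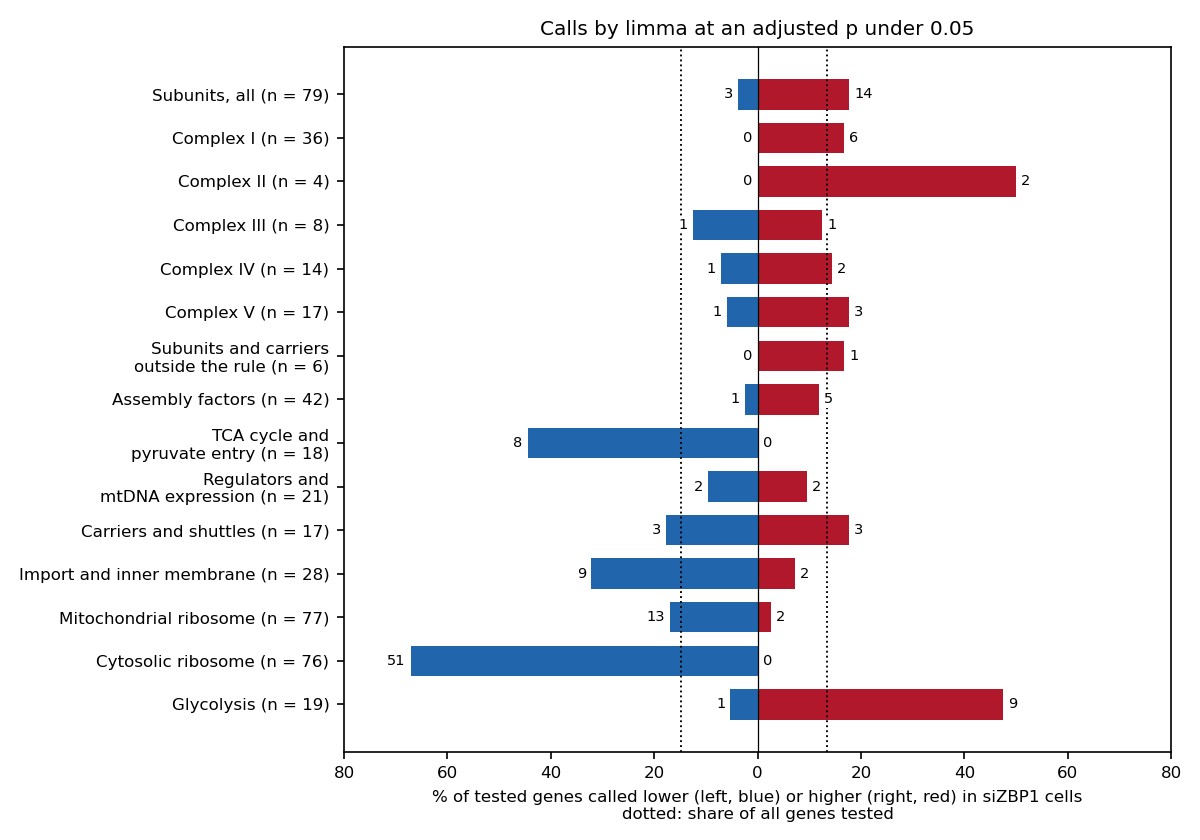
Percentage of tested genes called lower (left) or higher (right) in siZBP1 cells by limma (adjusted p below 0.05), for the subunits, each complex and related gene lists; numbers at the bars count genes and dotted lines mark the shares of all genes tested (14.8% lower, 13.5% higher). The bar of the subunits is longer to the right (14 genes) than to the left (3 genes), while the tricarboxylic acid cycle (8 lower) and cytosolic ribosome (51 lower) bars lie on the left only.

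Most subunits are short proteins, and the members had a median coding length of 423 bases against 1383 bases over the genes tested. Across the 79 members, Spearman's rho between coding length and log2 fold change was -0.22, and it was -0.05 across the 11316 genes with a coding length; genes of these 4 libraries are not independent replicates. The 37 members with 300 to under 600 coding bases had a median log2 fold change of 0.11, with 8 risen. The 20 shorter members had a median of 0.09, with 4 risen and 2 fallen. The 13 members with 600 to under 1200 bases had a median of -0.00023, with 1 risen. The 9 longer members had 0.07, with 1 risen and 1 fallen, so that the members' medians did not fall steadily with length. Over all genes with a coding length they did: from the shortest class to the longest, the medians were 0.043, 0.028, 0.015 and -0.0038. The share of all genes called in each length class was not counted, and the part of length in the subunit values was not tested.

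Many subunit genes have processed pseudogenes that share their sequence. A 50-base word of the coding sequence occurred in another gene for 34 of the 84 members, for more than 50% of words in 13 of them, and for all words in Atp5g2, Atp5l, Cox7c and Ndufb4. Of the 33 tested members with such a word, 8 rose (24.2%, beside 13.5% of all genes) and 1 fell (3.03%, beside 14.8%). Of the 46 tested members without one, 6 rose (13%) and 2 fell (4.35%), with a median log2 fold change of 0.08. Among the called genes, Ndufv3, Ndufa1, Ndufc2, Sdhc, Sdhd, Uqcrq, Cox6a2 and Cox7a2 share no such word. Another annotated gene overlaps 37 members, 5 of the risen (13.5% of the 37) and 2 of the fallen genes (5.41%) among them.

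The promoter letters shown above were set beside these calls. The nuclear respiratory factor 1 letters were in the windows of 0 of 13 risen members and of 8 of 52 members without a call. The YY1 letters were in the windows of 3 of 13 risen members, Ndufa1, Ndufa7 and Atp5j, in that of Atp5b, which fell, and in 6 of 52 without a call. No test was made of these counts, and the absence of a match says only that these letters are not in the window.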

How the data were processed

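mRNA of 2 siScr and 2 siZBP1 samples was sequenced. The authors deposited 1 table of FPKM values. The study's methods name TopHat 2.0.12, mm10 and HTSeq, and the submitters' processing notes name TopHat and Cufflinks; annotation, filters, strand and read numbers are not given in the sources used here. Groups came from the sample labels. Genes with a mean of at least 1 FPKM over all samples were tested on log2(FPKM + 1) by limma 3.58.1 in R 4.3.3 with a variance trend, with Benjamini-Hochberg adjustment over all 11959 genes and a threshold of 0.05; fold changes on this scale understate those of low genes. A ratio of group means over 1.5-fold was also counted. The scripts were tested on simulated data. Summed FPKM was compared by exact permutation. Coordinates and coding sequences are GENCODE M21 on GRCm38, promoters RefSeq on GRCm38.p6. Named genes are members both called and over 1.5-fold, and the 2 largest rises and falls and the 2 most abundant genes of each complex. Also named are the core subunits, genes with isoforms, untested members, the largest rise and fall of each related list, and Zbp1. The further called members and genes named in the statements on promoter letters and shared words were named after their values were seen. So were the regulators Nrf1, Gabpa and Yy1 and the markers Col1a1, Lyz2, Plin1, Cidec, Adipoq and Fabp4. 1 tested member and 1 marker are not reported here by name. Members and lists were chosen with earlier results of these data known. The alternatives changed the offset, the filter, the scaling, the variance model, the replicate block and the libraries included.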

Additional observations from a re-analysis of the deposited data

How the results depend on the processing

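With all 4 samples kept, 158 of 186 alternative estimates for the 17 called members kept the direction and stayed past the threshold; with a sample left out, 14 of 68 did, and no called member changed sign. Without a variance trend, 7 members were called higher, 6 of them among the 14, and Cox7a1. The count called lower (3) was 1 without a variance trend, 1 after quantile normalization and 1 with a replicate block. The sources do not say whether same-numbered samples are paired. The deviations of same-numbered samples had r = -0.06 over 11959 genes, which cannot settle this. The block kept 13 of the 17 calls. With each sample left out in turn, the higher count was 0 to 8 and the lower count 0 to 3. Over 1.5-fold, the 1 higher member became 0 with a mean of at least 1 FPKM and 0 after adding 1 to both means, with 0 to 2 higher and 1 to 2 lower members when a sample was left out. The median log2 fold change over the members stayed between 0.07 and 0.09. Without the most abundant member of each complex, the ratio of summed FPKM was 1.03 for complex II, 1.11 for complex III and 1.06 for complex V. It was 1.07 for all complexes together, with these members of every complex left out. The log2 fold change of the targeted gene Zbp1 was -2.79 to -2.33 with a sample left out and was no longer past the threshold without either siZBP1 sample. The median of carriers and shuttles (-0.02) was 0.04 and that of regulators (-0.04) 0.02 after quantile normalization. The cause of these shifts was not tested. The read numbers are unknown, and with 2 samples a group a difference within its SE cannot be told from the replicate spread.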
